A study of Mus musculus with 9 samples.

Results

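The 31 genes described here encode the enzymes that carry pyruvate into mitochondria and oxidise it in the tricarboxylic acid cycle, with the regulators of that entry step. They were taken by gene symbol from a table of raw counts of 55359 genes, and all 31 were found and had enough counts to be tested, as had 14649 genes in all. The counts come from 9 RNA-seq libraries of mouse cells, 3 per day. Day 0 is adipocyte precursors of inguinal white adipose tissue (iWAT, a subcutaneous fat depot) before induction, and days 4 and 8 are the same kind of cells during beige adipocyte differentiation, toward fat cells that can burn fuel for heat. The cells were induced with insulin (5 μg/mL), the glucocorticoid dexamethasone (2 μg/mL), the PPARγ agonist rosiglitazone (0.5 μmol/L), the thyroid hormone 3,3′,5-triiodo-L-thyronine (1 μmol/L), indomethacin (125 μmol/L) and the phosphodiesterase inhibitor 3-isobutyl-1-methylxanthine (0.5 mmol/L). After 2 days dexamethasone, indomethacin and the phosphodiesterase inhibitor were withdrawn, so the day 4 and day 8 cells were sampled after that change. The labels give day 0 no treatment. They name no strain, genotype, sex or age, and do not say whether the libraries of a day came from separate animals or cultures, so the p-values rest on a spread between libraries that may be technical. The cells were differentiated in culture.

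Pyruvate made by glycolysis in the cytosol enters mitochondria through a carrier of a pair of subunits, MPC1 and MPC2. There the pyruvate dehydrogenase complex turns it into acetyl-CoA. Kinases of the PDK family phosphorylate that complex and switch it off, and the phosphatases PDP1 and PDP2 remove the phosphate and switch it on. Pyruvate carboxylase makes oxaloacetate from pyruvate instead, which refills the cycle and in fat cells supplies citrate for fatty acid synthesis. The cycle oxidises acetyl-CoA to carbon dioxide and passes electrons to the respiratory chain, which in brown and beige fat cells can be uncoupled by UCP1 to give heat.

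Total counts per library ranged from 26387408 to 31474490, so that 3 counts, taken as the floor of detection, correspond to 0.0809 to 0.125 CPM (counts of a gene per 1e+06 counts). Values below are CPM on scaled library sizes unless stated. Several marker lists moved with the day. All 6 adipocyte markers (Adipoq, Plin1, Fabp4, Pparg, Cebpa, Lpl) were higher at days 4 and 8 than at day 0, and their sum went from 358 to 440 CPM before induction to 17837 to 32284 CPM at day 4 and 26580 to 28504 CPM at day 8. All 6 thermogenic markers, Ucp1 among them, were also higher, with sums of 0.162 to 0.323, 186 to 556 and 1073 to 1736 CPM. Most of the day 4 sum was Elovl3, at 483, 166 and 364 CPM in the day 4 libraries. Ucp1 was at 11.98, 3.08 and 5.08 CPM there, and Cidea at 14.4 CPM or less. Dio2 had 2 counts in day 4 replicate 2, below the floor of 3. The 4 myofibroblast markers were lower on both days, with sums of 2615 to 3576 CPM at day 0, 40.2 to 316 at day 4 and 200 to 234 at day 8. The 7 adipocyte precursor markers were mixed: of 6 tested, 3 were higher (Dlk1, Cd34, Ly6a) and 2 lower (Pdgfra, Thy1) at day 4 than at day 0, and 3 were lower and none higher at day 8, with sums of 1379 to 1590, 770 to 1865 and 551 to 782 CPM on the 3 days. Markers of other cells were low: over all libraries macrophage markers summed to 6.80 to 19.2 CPM, endothelial markers to 1.81 to 15.5 CPM, mesothelial markers to 15.9 to 50.5 CPM (nearly all Krt19, which was higher at day 8 than at day 0), mammary epithelial markers to at most 0.621 CPM and skeletal muscle markers to 2.09 to 38.0 CPM, with the muscle genes Ckm and Myh4 at 0 in all 9. In such bulk RNA a larger share of cells that express a gene and more RNA of it per cell cannot be told apart.

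Most of the 31 genes rose together early and stayed up. Their summed level was 1885, 1971 and 1927 CPM in the day 0 libraries, 18125, 10077 and 16460 CPM at day 4 and 16088, 17386 and 15145 CPM at day 8. As a share of unscaled total counts, a different scale, they made up 0.222% to 0.231% at day 0. That share was 1.00% to 1.60% at day 4 and 1.43% to 1.5% at day 8. On both scales day 0 did not overlap the other days. At day 4, 28 of 31 were higher than at day 0 and 1 was lower (edgeR's quasi-likelihood F-test, adjusted p under 0.05), against a background of 28.6% of all tested genes called higher and 26.0% called lower. At day 8, 27 were higher than at day 0 and 2 were lower, with 33.5% and 29.9% of all genes called in those directions. The median log2 fold change of the 31 was 2.76 at day 4 and 2.77 at day 8, where the median of all tested genes was -0.01 and 0.03. For 27 of the 31 every day 4 library lay above every day 0 library and for 1 below, against 32.8% and 33.0% of all genes, and for day 8 these were 27 and 3, against 37.4% and 35.3%. The rise was present by day 4. From day 4 to day 8 only 2 genes rose (Pdk4 and Idh2) and 1 fell (Idh1), with 11.7% of all genes called higher and 10.8% lower. All day 8 libraries lay above all day 4 libraries for 5 of the 31 and below for 2, against 19.9% and 17.1% of all genes, and the median log2 change of the 31 was 0.08.

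**Figure D1:**
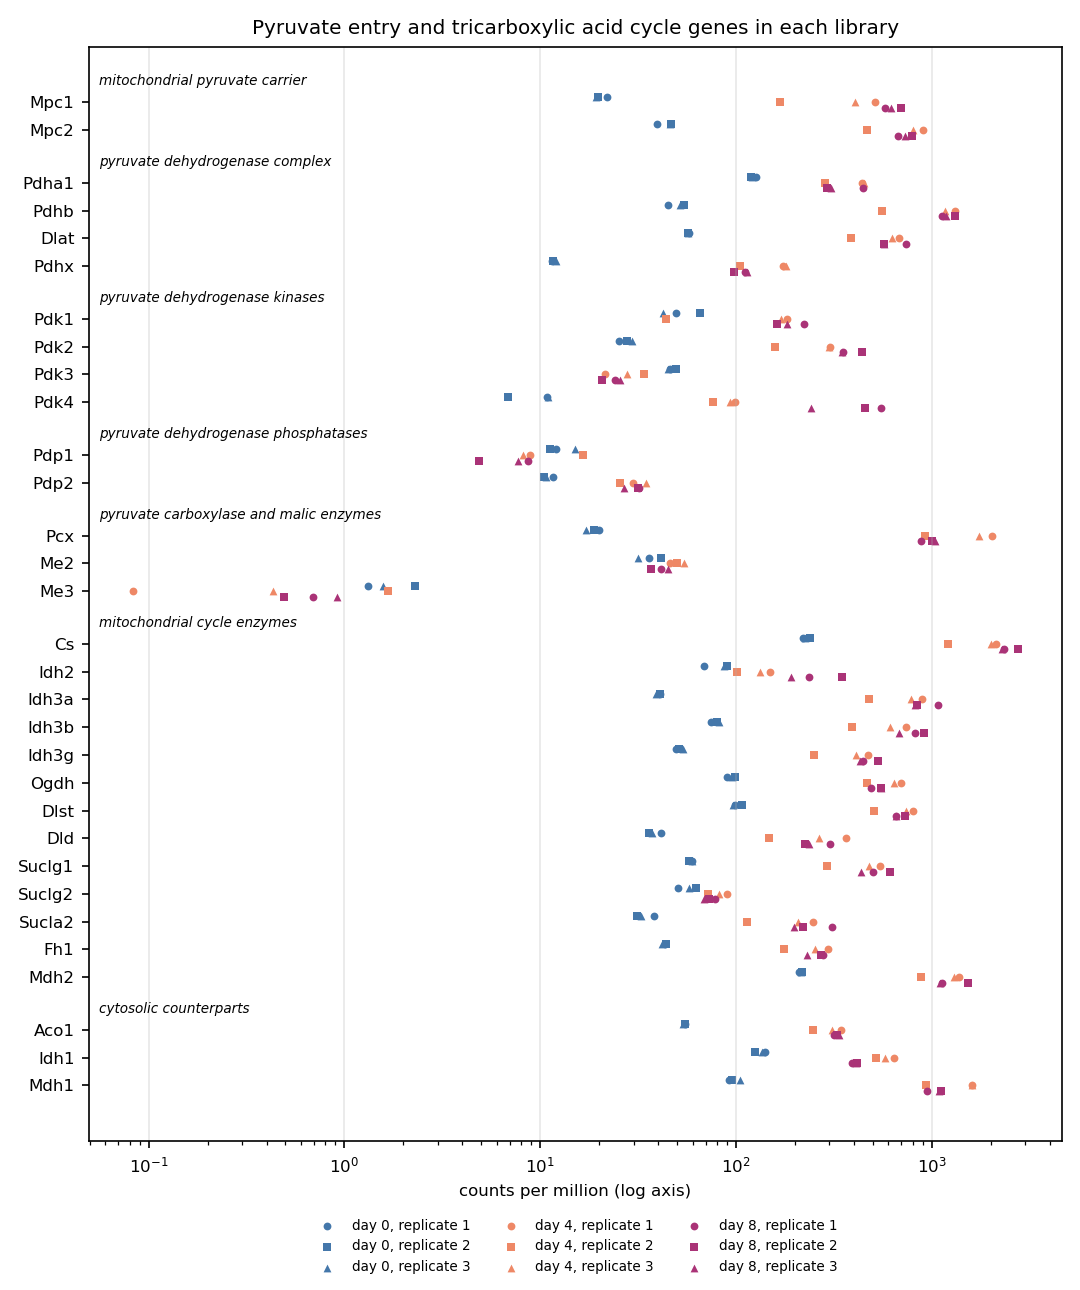
Level of each of the 31 genes in each of the 9 libraries, as CPM on a log scale, with 1 point per library. For most genes the day 4 and day 8 points lie above all 3 day 0 points, while Pdk3 lies below them, Pdk1, Pdp1 and Me3 overlap them at day 4, Me2 overlaps them at day 8, and Pdp1 and Me3 lie below them at day 8.

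Day 4 replicate 2 stood apart from the other 2, and the result is given with and without it. It was the lowest of the day 4 libraries for 27 of the 28 genes that were higher at day 4 (Me2 was the exception), as it was for 76.7% of all genes called higher at day 4. Its level was 0.588 times the mean of the other day 4 libraries at the median of those 28, from 0.250 times for Pdk1 to 0.992 times for Me2, and it was the highest day 4 library for Pdk3, Pdp1 and Me3. It also had the lowest summed adipocyte markers of day 4, at 17837 CPM, and the highest summed precursor markers, at 1865 CPM, above every day 0 library, and myofibroblast markers, at 316 CPM. Of that precursor sum 1132 CPM was Ly6a. Dlk1, Cd34 and Pi16, at 8.96 to 40.7 CPM, also lay above every day 0 library. Thy1 (506 CPM), Pdgfra (156 CPM) and Dpp4 (0.145 CPM) lay below every day 0 library. The part of these marker differences in the results was not tested. Without it, 28 genes were still higher at day 4 than at day 0 and 2 were lower, and 2 were higher but 5 lower at day 8 than at day 4. Scaling by total counts instead, which moved the median of all genes by about 0.3 (to -0.34 at day 4 and -0.33 at day 8) and the higher share of called genes to 35.3% at day 4 (52.4% with the main scaling) and 37.5% at day 8 (52.9%), left 24 of the 31 higher at day 4 and 26 at day 8.

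**Figure D2:**
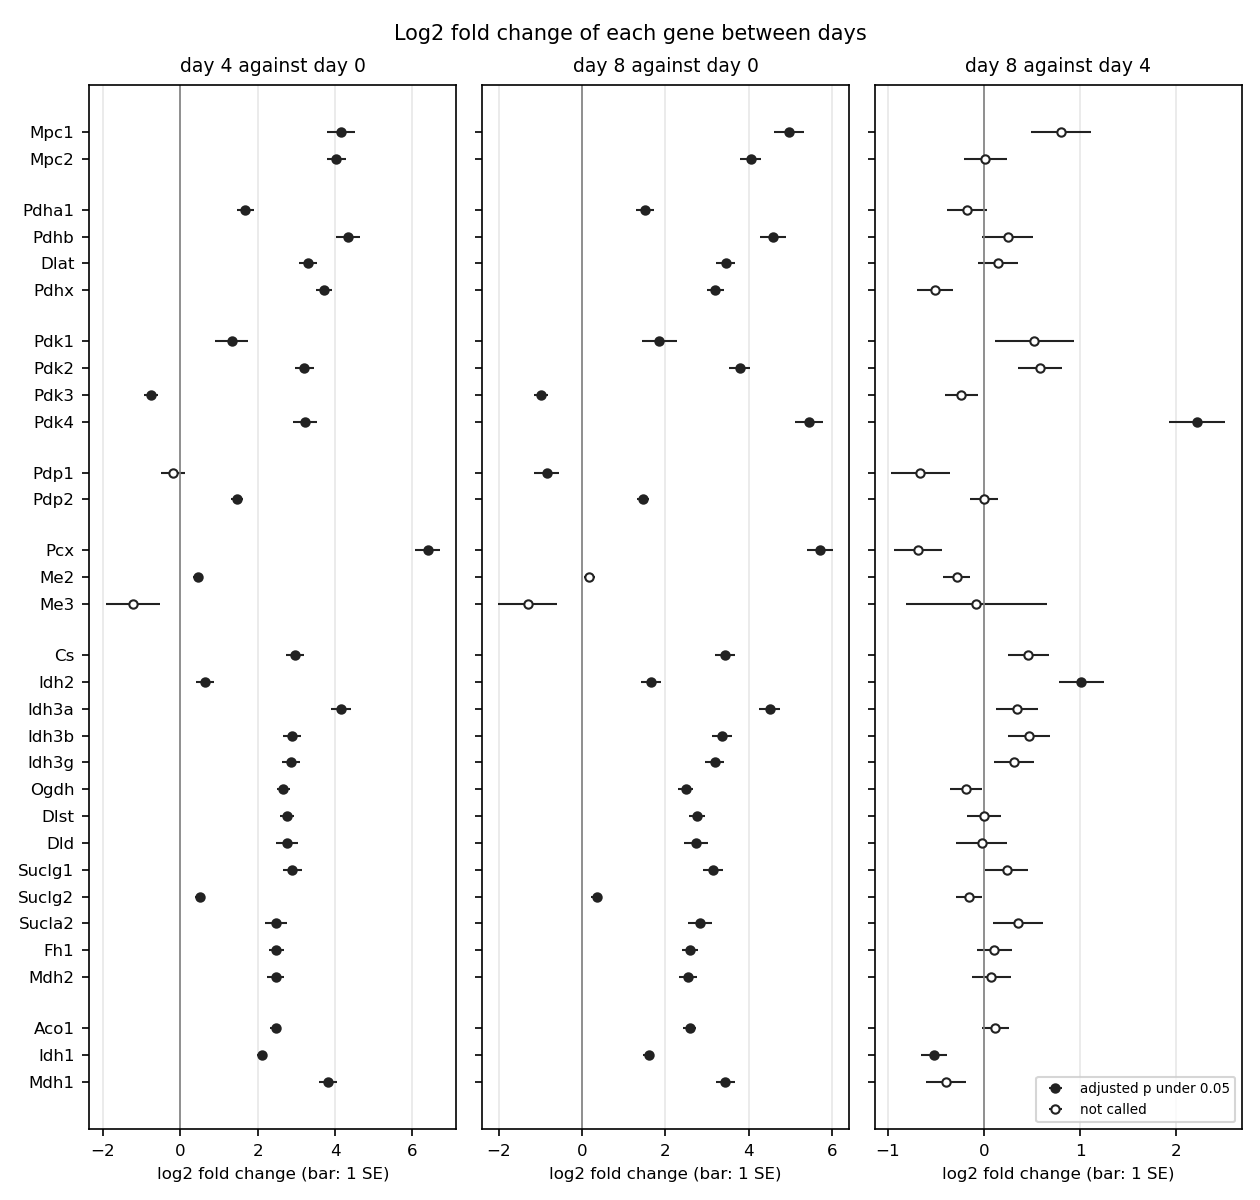
Log2 fold change of each gene with its standard error in the 3 comparisons between days, with the genes grouped by role. Pcx has the highest fold change of the 31 in both comparisons with day 0, and Pdk4 between days 4 and 8. Filled points passed an adjusted p of 0.05 in edgeR's test.

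Both subunits of the mitochondrial pyruvate carrier rose. Mpc1 was at 21.8, 19.7 and 19.3 CPM at day 0, 510, 168 and 404 at day 4 and 577, 698 and 618 at day 8. The log2 fold change was 4.15 (SE 0.35, edgeR's adjusted p = 5.79e-06) at day 4 and 4.96 (SE 0.37, adjusted p = 2.26e-06) at day 8. Mpc2 was at 39.6, 46.5 and 46.2 CPM at day 0, 903, 464 and 802 at day 4 and 669, 795 and 730 at day 8, with log2 fold changes of 4.04 (SE 0.25) and 4.05 (SE 0.25). The carrier works as a heterodimer, and the balance of its mRNAs differed across the days. The log2 ratio of Mpc2 to Mpc1 counts was 1.12 ± 0.22 at day 0, then 1.09 ± 0.33 at day 4 and 0.21 ± 0.03 at day 8 (SD, n = 3; exact permutation test over the 3 days, p = 0.0321, adjusted over 15 ratios 0.0371). It was 0.824, 1.46 and 0.990 in the day 4 libraries and 0.214, 0.187 and 0.242 at day 8. The test does not place the change between particular days, and neither gene was called between days 4 and 8 in the main fit. No ratio below is corrected for transcript length, so only its change between days is read. The reads of Mpc1 may include some of an opposite-strand transcript, 4930506C21Rik, which overlaps 23.1% of its exon length and held 114 counts in all beside 81979 for Mpc1.

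All 4 subunits of the pyruvate dehydrogenase complex rose, but Pdha1, the alpha subunit of the E1 component, rose much less than its partner Pdhb. Pdha1 went from 126, 119 and 121 CPM at day 0 to 442, 286 and 451 at day 4 and 448, 292 and 304 at day 8 (log2 fold change 1.69, SE 0.22, at day 4 and 1.51, SE 0.22, at day 8). Pdhb, the E1 beta subunit, went from 44.9, 54.2 and 51.8 CPM to 1320, 559 and 1165 and then 1122, 1315 and 1181 (log2 fold change 4.33, SE 0.31, and 4.58, SE 0.31). The E1 enzyme needs both, and their log2 ratio, Pdhb to Pdha1, moved from -1.28 ± 0.18 at day 0 to 1.31 ± 0.31 at day 4 and 1.82 ± 0.44 at day 8 (SD, n = 3; exact permutation p = 0.0107, adjusted 0.023). Dlat, the E2 core that carries lipoate, rose by 3.30 on the log2 scale at day 4 (SE 0.23, edgeR's adjusted p = 1.29e-06) from 57.8, 57.0 and 56.8 CPM. Pdhx, the protein that binds E3 to the core, went from 11.5, 11.7 and 12 CPM to 175, 104 and 179 at day 4 and 111, 98.1 and 114 at day 8. Its log2 ratio to Dlat was -2.29 at day 0, then -1.88 at day 4 and -2.53 at day 8 (exact permutation p = 0.0071, adjusted 0.0214). Map3k15, on the opposite strand, overlaps 16.1% of the exon length of Pdha1 but held 361 counts beside 71699.

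The 4 pyruvate dehydrogenase kinases changed in different ways, and so did the mix of them. Pdk4, the kinase known for its rise in fasting and fat oxidation, was at 10.8, 6.86 and 10.9 CPM at day 0, 98.8, 76.1 and 93.1 at day 4 and 550, 458 and 242 at day 8. It rose at each step, with a log2 fold change of 3.22 (SE 0.31, edgeR's adjusted p = 1.22e-05) from day 0 to day 4 and 2.22 (SE 0.29, adjusted p = 0.00105) from day 4 to day 8. The days did not overlap. Pdk2, found in most tissues, rose from 25.2, 27.8 and 29.5 CPM to 303, 158 and 299 at day 4 and 352, 440 and 346 at day 8 (log2 fold change 3.21, SE 0.25, and 3.79, SE 0.25). Pdk1, a known target of the hypoxia factor HIF-1, was at 49.5, 65.5 and 42.2 CPM at day 0, 181, 43.8 and 170 at day 4 and 223, 162 and 183 at day 8. Day 4 replicate 2 lay within the day 0 range. The Pdk1 log2 fold change was 1.33 at day 4 (SE 0.42, edgeR's adjusted p = 0.0201) and 1.85 at day 8 (SE 0.42, adjusted p = 0.00296). The day 4 call was lost when replicate 1 or 3 of day 0, or replicate 1 or 3 of day 4, was left out (edgeR's adjusted p from 0.0646 to 0.0753), and with total counts (0.0593). Pdk3 was the only kinase to fall, from 45.9, 49.1 and 44.9 CPM to 21.3, 34.0 and 27.6 at day 4 and 24.1, 20.8 and 25.7 at day 8, below all day 0 libraries. Its log2 fold change was -0.75 (SE 0.17, edgeR's adjusted p = 0.00372) and -0.99 (SE 0.17, adjusted p = 0.00055).

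**Figure D3:**
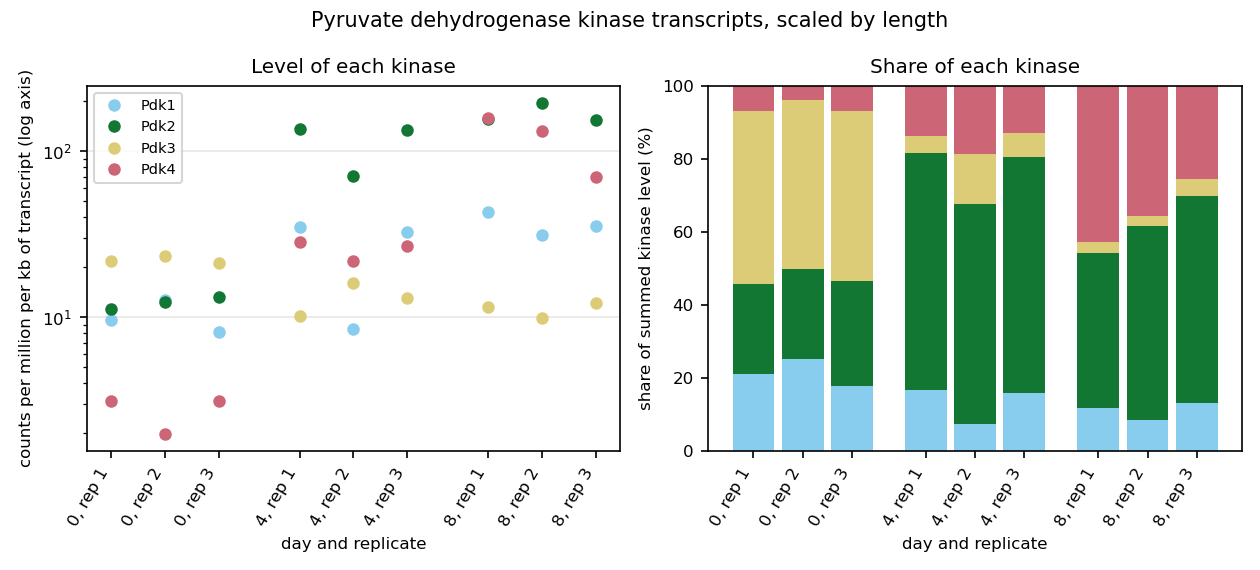
Left, level of the 4 pyruvate dehydrogenase kinases in each library, in CPM per kb of transcript on a log axis, 1 point per gene. Right, share of each kinase in their sum, in percent. Pdk3 holds the largest share in each day 0 library, and Pdk2 and Pdk4 together hold most of it at days 4 and 8.

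Because the 4 genes differ in length, their levels were compared per kb of transcript. On that scale the summed level of the 4 kinases rose from 47.1 ± 2.65 CPM per kb at day 0 to 177 ± 52.0 at day 4 and 336 ± 56.3 at day 8 (SD, n = 3). Pdk3 made up 46.8 ± 0.712% of that sum at day 0, then 8.32 ± 4.78% and 3.41 ± 0.945%. Pdk2 went from 26 ± 2.39% to 63.3 ± 2.57% and 50.8 ± 7.50%, and Pdk4 from 5.87 ± 1.69% to 15.1 ± 3.12% and 34.7 ± 8.63%. The Pdk1 share was 21.3 ± 3.68%, 13.3 ± 5.27% and 11.0 ± 2.33%. The lengths are those of the transcript with the longest coding part; with merged exons, chosen after the data were seen, the Pdk4 share at day 8 was 42.5% and that of Pdk2 44.9%. Within a library, the log2 ratio of Pdk4 to Pdk1 rose from -2.46 ± 0.69 to -0.31 ± 0.96 and 1.07 ± 0.58 (exact permutation p = 0.0071, adjusted 0.0214), and that of Pdk2 to Pdk1 from -0.91 to 1.14 and 1.01 (p = 0.0286, adjusted 0.0371). The ratio of Pdk3 to Pdk1 fell from -0.15 to -2.02 and -3.0 (exact permutation p = 0.025, adjusted 0.0371). That last call was lost without any one of the 3 day 0 libraries or the 3 day 8 libraries (adjusted p from 0.0536 to 0.0957).

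The phosphatases that oppose the kinases also parted. Pdp2 rose from 11.6, 10.4 and 10.7 CPM to 29.6, 25.7 and 34.7 at day 4 and 32, 31.5 and 26.7 at day 8, with a log2 fold change of 1.46 on both days (SE 0.15, edgeR's adjusted p = 2.31e-05 and 1.83e-05). Pdp1 was at 12, 11.2 and 15.1 CPM at day 0, 8.85, 16.6 and 8.19 at day 4 and 8.71, 4.90 and 7.71 at day 8. Day 8 lay below day 0, with a log2 fold change of -0.84 (SE 0.30, edgeR's adjusted p = 0.0306), and day 4 did not pass the test (-0.19, adjusted p = 0.622). The Pdp1 call at day 8 was lost when replicate 3 of day 0 was left out (0.0975), or replicate 2 (0.113) or 3 (0.055) of day 8. The log2 ratio of Pdp2 to Pdp1 was -0.22 at day 0, then 1.48 at day 4 and 2.11 at day 8 (exact permutation p = 0.0143, adjusted 0.0268), and was no longer under the threshold without any one of the day 0 libraries (adjusted p from 0.0536 to 0.0577).

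Pcx, pyruvate carboxylase, had the largest rise of the 31 genes. It was at 19.9, 18.9 and 17.2 CPM at day 0, 2037, 924 and 1742 at day 4 and 885, 999 and 1035 at day 8. That is 83.9-fold at day 4 (log2 6.39, SE 0.32, edgeR's adjusted p = 2.21e-07) and 52.1-fold at day 8 (log2 5.70, SE 0.31, adjusted p = 3.32e-07). Per kb its rank among the 31 went from 28 at day 0 to 6 at day 4 and 12 at day 8. Against Pdha1, the subunit of the competing pyruvate dehydrogenase complex that rose least, its log2 ratio moved from -2.71 at day 0 to 1.95 and 1.51 (exact permutation p = 0.0107, adjusted 0.023). Ratios of Pcx to the other subunits were not tested. On days 0, 4 and 8 mean Pcx was 18.7, 1568 and 973 CPM, and mean Pdhb was 50.3, 1015 and 1206 CPM. The shift of Pcx against Pdhb was thus smaller than against Pdha1. From day 4 to day 8 the change in Pcx was -0.69 (SE 0.25, adjusted p = 0.0708), and without day 4 replicate 2 it was -1.01 (adjusted p = 0.000421). DESeq2 also called it (adjusted p = 0.0344), as did edgeR with no filter on low counts (0.0324). The mitochondrial malic enzymes, which turn malate into pyruvate, changed little or were not called. Me2 was at 35.9, 41.3 and 31.7 CPM at day 0, 46.0, 49.7 and 54.1 at day 4 and 41.4, 36.9 and 45.0 at day 8, with a log2 fold change of 0.46 at day 4 (SE 0.14, edgeR's adjusted p = 0.0176) and 0.18 (adjusted p = 0.285) at day 8. The Me2 call at day 4 was lost when replicate 1 or 3 of day 0, or replicate 3 of day 4, was left out (adjusted p from 0.0678 to 0.0959), and with total counts (0.478). Me3 was at 1.32, 2.30 and 1.57 CPM at day 0, 0.0835, 1.67 and 0.433 at day 4 and 0.694, 0.490 and 0.911 at day 8; it was not called, with log2 fold changes of -1.22 and -1.30. Without day 4 replicate 2 the day 4 value of Me3 was -2.70 (edgeR's adjusted p = 0.00273) and its day 8 value -1.35 (adjusted p = 0.0241). The day 8 value was also called without day 4 replicate 1 (0.0444) and with only the 2 days in the fit (0.0117). Me3 had the lowest level per kb of the 31 genes on all 3 days.

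All 13 mitochondrial enzymes of the cycle on the list rose at both days, by a median log2 fold change of 2.76 at day 4 and 2.77 at day 8. Cs, citrate synthase, the enzyme of the first step, went from 219, 239 and 226 CPM to 2120, 1211 and 2014 at day 4 and 2343, 2748 and 2284 at day 8. The 3 subunits of the NAD-dependent isocitrate dehydrogenase rose together but not equally. Idh3a, the catalytic subunit, rose from 41.1, 40.8 and 39.1 CPM to 894, 479 and 782 at day 4 and 1077, 844 and 818 at day 8 (log2 fold change 4.15, SE 0.25, edgeR's adjusted p = 5.75e-07 at day 4). Idh3b and Idh3g, the regulatory subunits, rose by 2.88 and 2.87 on the log2 scale at day 4 and by 3.36 and 3.18 at day 8. The log2 ratio of Idh3b to Idh3a fell from 0.96 ± 0.10 at day 0 to -0.31 ± 0.04 and -0.18 ± 0.26, and that of Idh3g to Idh3a from 0.35 to -0.93 and -0.96 (SD, n = 3; exact permutation p = 0.025 and 0.0321, adjusted 0.0371 for both). The 2-oxoglutarate dehydrogenase components Ogdh and Dlst, with Dld, the E3 component shared with the pyruvate dehydrogenase complex, rose by 2.67, 2.76 and 2.76 on the log2 scale at day 4. The ratio of Ogdh to Dlst fell a little, from -0.08 to -0.17 and -0.37 (exact permutation p = 0.0071, adjusted 0.0214), and was no longer under the threshold without day 0 replicate 3 (adjusted p = 0.0577). Fh1, fumarate hydratase, rose by 2.48 and 2.59, and Mdh2, mitochondrial malate dehydrogenase, by 2.47 and 2.55. Per kb, Mdh2 had the highest level of the 31 genes on all 3 days.

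The subunits of succinyl-CoA synthetase parted by their nucleotide. Suclg1 is the alpha subunit of both forms, Sucla2 the beta subunit of the ATP-forming enzyme and Suclg2 that of the GTP-forming enzyme. Sucla2 rose from 38.1, 31.1 and 32.6 CPM to 246, 114 and 207 at day 4 and 310, 219 and 198 at day 8 (log2 fold change 2.48, SE 0.28, and 2.84, SE 0.28), and Suclg1 rose by 2.90 and 3.14. Suclg2 was at 50.6, 62.8 and 57.3 CPM at day 0, 89.8, 72.1 and 81.8 at day 4 and 78.0, 72.5 and 68.4 at day 8, so that its rise was small (log2 0.51, SE 0.13, edgeR's adjusted p = 0.00746 at day 4 and 0.36, SE 0.13, adjusted p = 0.0345 at day 8). The day 8 call of Suclg2 was lost without day 0 replicate 1 (0.184), day 0 replicate 3 (0.108), day 8 replicate 1 (0.0902) or day 8 replicate 2 (0.0577), and with DESeq2 (0.0729), DESeq2's size factors (0.0544) or no filter on low counts (0.0895). With total counts the day 4 call was lost too (0.224) and the day 8 value was -0.0025. The log2 ratio of Suclg2 to Sucla2 was 0.74 ± 0.31 at day 0, then -1.15 ± 0.43 at day 4 and -1.71 ± 0.25 at day 8 (SD, n = 3; exact permutation p = 0.0036, the smallest that 9 libraries allow, adjusted 0.0214).

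Idh2, the mitochondrial NADP-dependent isocitrate dehydrogenase, rose late. It was at 68.6, 90.0 and 86.5 CPM at day 0, 149, 101 and 133 at day 4 and 235, 348 and 191 at day 8. From day 4 to day 8 its log2 fold change was 1.02 (SE 0.23, edgeR's adjusted p = 0.0123), and against day 0 it was 0.64 (SE 0.23, adjusted p = 0.0343) at day 4 and 1.66 (SE 0.23, adjusted p = 0.000136) at day 8. The day 4 call of Idh2 was lost without any one of the day 0 libraries, day 4 replicate 1 or day 4 replicate 3 (edgeR's adjusted p from 0.0534 to 0.129), and with total counts (0.201). Idh1, its cytosolic counterpart, was lower at day 8 than at day 4. It was at 141, 125 and 135 CPM at day 0, 640, 517 and 579 at day 4 and 389, 416 and 409 at day 8, all below day 4. Idh1 rose by 2.12 at day 4 (SE 0.14, edgeR's adjusted p = 9.8e-07) and then fell by 0.52 on the log2 scale to day 8 (SE 0.13, adjusted p = 0.0211). The fall of Idh1 was not called when replicate 3 of day 4 was left out (0.0628), or replicate 1 (0.059) or 3 (0.0554) of day 8, nor with only the 2 days in the fit (0.0675). The log2 ratio of Idh2 to Idh1 dipped from -0.72 ± 0.29 at day 0 to -2.19 ± 0.14 at day 4 and was -0.70 ± 0.42 at day 8 (SD, n = 3; exact permutation p = 0.0357, adjusted 0.0383).

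The other cytosolic counterparts rose as well. Mdh1, cytosolic malate dehydrogenase, rose from 91.9, 95.0 and 104 CPM to 1601, 935 and 1598 at day 4 and 940, 1119 and 1094 at day 8 (log2 fold change 3.83, SE 0.23, and 3.44, SE 0.23), more than its mitochondrial partner Mdh2. The log2 ratio of Mdh2 to Mdh1 fell from 1.14 ± 0.08 at day 0 to -0.20 ± 0.11 at day 4 and was 0.24 ± 0.23 at day 8 (SD, n = 3; exact permutation p = 0.0036, adjusted 0.0214). Aco1, cytosolic aconitase and an iron-regulated RNA-binding protein, rose by 2.46 and 2.58 on the log2 scale. Without day 4 replicate 2, Pdhx (-0.77, edgeR's adjusted p = 0.000827), Mdh1 (-0.66, adjusted p = 0.00382) and Ogdh (-0.39, adjusted p = 0.0342) were lower at day 8 than at day 4, beside Pcx and Idh1. Without day 4 replicate 1, Mpc1 (1.14, adjusted p = 0.0213) and Idh3b (0.68, adjusted p = 0.0399) were higher. Mpc1 was also called with all libraries and no filter on low counts (0.81, edgeR's adjusted p = 0.0249).

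**Figure D4:**
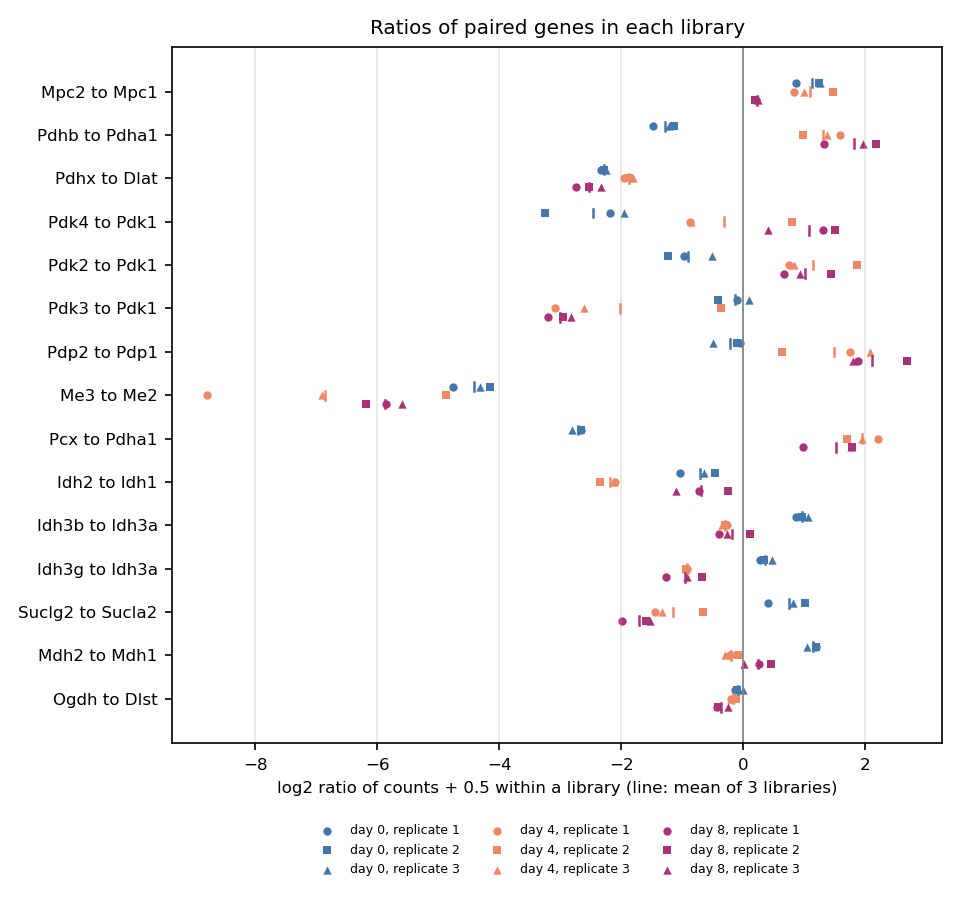
Log2 ratio of counts for each of the 15 pairs of related genes, 1 point per library, colour by day and shape by replicate, with a line at the mean of each day. Pairs such as Pdhb to Pdha1, Suclg2 to Sucla2 and Mdh2 to Mdh1 show day 0 points apart from the later days, and Idh2 to Idh1 dips at day 4.

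Of 15 such pairs compared, 14 differed across days at an adjusted p under 0.05, and the 15th, Me3 to Me2, did not (-4.41, -6.86 and -5.88 at days 0, 4 and 8, exact permutation p = 0.1, adjusted 0.1). The share of other gene pairs that would differ was not computed, so this count is not read as particular to these genes. Of all single genes, edgeR called 28.6% higher and 26.0% lower at day 4 than at day 0. The pairs were also chosen with earlier results of these data known. Without day 4 replicate 2 Me3 to Me2 also passed (adjusted p = 0.0214).

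The promoters of 28 of the 31 genes, 250 bases before to 50 after each RefSeq start (GRCm38.p6), were searched on both strands for exact matches to 4 motifs of factors known to act on mitochondrial and fat cell genes. The palindromic cAMP response element TGACGTCA was in the promoters of 2 of the 28 genes, Mdh2 and Ogdh. It was in 1.79% of all 32851 promoters and 2.03% of all genes in the table. No promoter of the 28 held an exact match to the estrogen-related receptor element TCAAGGTCA, which is in 0.423% of all promoters, to a DR1 direct repeat, in 0.381%, or to the NRF1 motif, in 0.971%. With shares this low, the lack of a match in 28 genes is not read as a result about them. The stretches around the matches are shown because both lie within 150 bases upstream of a start of a cycle gene that rose, with the element in capitals. For Ogdh, the bases after the nearest start were not found in a GENCODE transcript of the gene. They were found for the start that has the element 113 to 106 bases before it. A match is a description and not a site of binding.

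Mdh2, chr5:135778492-135778559, + strand, element 127 to 120 bases before the start: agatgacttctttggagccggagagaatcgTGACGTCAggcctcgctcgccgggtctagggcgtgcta
Ogdh, chr11:6291516-6291583, + strand, element 51 to 44 bases before the nearest of its starts: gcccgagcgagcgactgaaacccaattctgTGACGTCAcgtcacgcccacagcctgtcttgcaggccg

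Genes that work beside the 31 moved in the same direction for the most part. Of 46 related genes listed, 43 were tested, and 34 were higher and 4 lower at day 4 than at day 0 (edgeR's adjusted p under 0.05; median log2 fold change 1.87), where 28.6% and 26.0% of all tested genes were called. At day 8, 32 were higher and 4 lower (median 2.06), where 33.5% and 29.9% of all genes were called. Sdha, Sdhb, Sdhc and Sdhd, the 4 subunits of succinate dehydrogenase, all rose on both days, as did the 4 genes of succinate dehydrogenase assembly. The 4 genes listed for lipoate attachment rose too. These are Lias, Lipt1 and Lipt2, which make or transfer lipoate, and Gcsh, the glycine cleavage protein that carries it. Ogdhl, a relative of Ogdh, fell from 21.9, 30.1 and 25.5 CPM to 7.55, 12.7 and 9.77 and then 3.26, 1.92 and 5.75. Gpt, an alanine transaminase that makes pyruvate, rose by 5.43 on the log2 scale at day 4 and 5.63 at day 8, and Slc25a10, the dicarboxylate carrier, by 4.56 and 4.51. Pck1, which makes phosphoenolpyruvate from oxaloacetate for glycerol synthesis in fat cells, had 1 count in all of day 0, 5.77 to 15.3 CPM at day 4 and 54.9 to 75.2 CPM at day 8.

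Between days 4 and 8, 8 of the 43 related genes rose and 8 fell, where 11.7% of all genes were called higher and 10.8% lower. The largest changes were Pck1 (log2 2.54), Glud1 (-1.99), Ldhd (1.96) and Acly (-1.79). Glud1, glutamate dehydrogenase, which feeds 2-oxoglutarate to the cycle, was at 156, 164 and 162 CPM at day 0, 801, 638 and 832 at day 4 and 199, 184 and 189 at day 8. Acly, which splits exported citrate for fatty acid synthesis, was at 226, 210 and 233 CPM, then 1700, 555 and 1534, then 293, 361 and 439. Ldhd, a mitochondrial D-lactate dehydrogenase, was at 0.404, 0.130 and 0.178 CPM at day 0, 5.55, 1.71 and 5.08 at day 4 and 17.3, 15.0 and 15.8 at day 8.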

How the data were processed

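RNA was sequenced from the cleared supernatant of a detergent and cycloheximide lysate, with a stranded total RNA kit, per the labels' protocols. The authors deposited raw, unscaled counts per Ensembl gene. Per the submitters' processing notes, HISAT2, featureCounts and build GRCm39 were used. Their versions, annotation release and strand setting are not given in the sources used here. Counts of a gene and an overlapping opposite-strand gene may therefore not be told apart.

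Counts of all 9 libraries entered 1 fit in R 4.3.3 with edgeR 4.0.16 (quasi-likelihood F-test, two-sided, TMM scaling, filterByExpr with minimum count 10 and minimum total 15), with p-values adjusted by Benjamini-Hochberg over 14649 genes and a threshold of 0.05. Standard errors were derived from the F statistic. Ratios of 2 genes (0.5 added to each count) were tested with an exact permutation test over 1680 arrangements. Levels per kb used GENCODE M21 transcript lengths, and promoters came from RefSeq, GRCm38.p6. The opposite-strand overlaps and the check of promoter starts also used GENCODE M21. DESeq2 1.42.0, other scalings, no filter, a replicate block, and leaving out each library were alternatives. The ± values are SDs over the 3 libraries of a day. No 2 libraries of a day agreed within sampling noise. The 31 genes, the 46 related genes, the ratios and the markers were chosen with earlier results of these data known. All 31 could be named; of the related genes, up to 4 per comparison with the largest change past the threshold, and members of a described group. The tests were first tried on simulated data.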

Additional observations from a re-analysis of the deposited data

How the results depend on the processing

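Over 15 alternatives, 93 results (31 genes in 3 comparisons) gave 1395 values, of which 1347 kept direction and side of the threshold, 34 lost the call, 13 gained it and 1 reversed; 78 results kept the call throughout. The reversal was Suclg2 at day 8 against day 0, which was 0.36 and became -0.0025 with total counts (adjusted p = 0.987; the cause was not tested). Genes lower at day 8 than at day 0 were 2, and 1 with the replicate block. Genes lower at day 8 than at day 4 were 1, and were 2 with DESeq2, 2 with no filter on low counts and 0 with only the 2 days compared; the cause was not tested. Leaving out each library in turn gave 25 to 28 higher and 1 to 2 lower at day 4 against day 0, 26 to 27 higher and 1 to 3 lower at day 8 against day 0, 2 to 4 higher and 0 to 5 lower at day 8 against day 4, and 11 to 15 of 15 ratios that differed. The same-numbered libraries did not deviate together across all days: their correlations ran from -0.126 to 0.273, with 5 of 9 libraries closest to their own number. Between days 0 and 8 they were 0.273, 0.138 and 0.0859, above those of differently numbered libraries (-0.180 to 0.0366). Not every pair passed 0.1, so the numbers were not taken to pair samples; with the replicate block 26 genes were higher and 1 lower at day 4, 26 and 1 at day 8 and 2 and 1 between them. The block left Idh2 (0.0524) and Pdk1 (0.0567) at day 4 and Suclg2 (0.0542) and Pdp1 (0.0578) at day 8, all against day 0, over the adjusted p threshold. Depth limits Me3, which had 2 counts (0.0835 CPM) in day 4 replicate 1, below the 0.125 CPM that 3 counts give there.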

Other observations

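Among the 9 genes listed for citrate, malate and aspartate shuttling, 7 were higher and 2 lower at day 4 than at day 0 (edgeR's adjusted p under 0.05), where 28.6% and 26.0% of all tested genes were called. The list, and the 7, include Slc25a20, which is the carrier of acylcarnitines and not part of that shuttling. Between days 4 and 8, 1 was higher and 3 lower, where 11.7% and 10.8% of all genes were called. Got2, the mitochondrial aspartate transaminase, was at 137, 155 and 153 CPM at day 0, 708, 535 and 763 at day 4 and 280, 326 and 346 at day 8, a fall of 1.08 on the log2 scale from day 4 to day 8 (edgeR's adjusted p = 0.00224). The 2 genes lower at day 4 than at day 0 were Slc25a12 and Slc25a13, the mitochondrial aspartate-glutamate carriers. Slc25a12 was at 28.8, 30.7 and 31.5 CPM before induction, 18.6, 27.3 and 18.9 at day 4 and 11.8, 14.2 and 13.8 at day 8. Slc25a13 was at 5.47, 5.34 and 5.80 CPM, then 1.08, 1.89 and 2.05, then 0.625, 0.452 and 1.40.

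Slc16a1, a plasma membrane carrier of lactate and pyruvate, was at 44.0, 47.7 and 58.7 CPM at day 0, 111, 72.8 and 110 at day 4 and 349, 314 and 281 at day 8, so that most of its rise came after day 4 (log2 fold change 1.69, edgeR's adjusted p = 0.000468). These genes lie outside the rule for the largest changes and were named after their values were seen.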
